A study of Mus musculus with 2 samples.

Results

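The cytosolic ribosomal protein genes encode the proteins of the large (Rpl genes) and small (Rps genes) subunits of the ribosome that translates nuclear-encoded messages. They were chosen by name alone, as the mouse genes whose symbol is Rpl or Rps, a number and at most a short suffix of a, x, y, l or digits, and which have at least 1 protein-coding transcript. This rule found 80 of the 55536 measured genes, 49 of the large and 31 of the small subunit. No expression value enters this rule.

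The data are total RNA-seq, depleted of ribosomal RNA, of the nuclear (by label nucleoplasmic) fraction of macrophages grown from the bone marrow of C57BL/6J mice. The 2 libraries form 1 group. Its cells were given Lipid A, the membrane anchor of bacterial lipopolysaccharide and a ligand of the receptor TLR4, at 100 ng/ml over 12 h and then, after 12 h without it, at 100 ng/ml over 40 min. By label the libraries are biological replicates 1 and 2 with 1 donor entry for both, and neither age nor sex of the animals was collected. The RNA input was 1 µg for library 1 and 500 ng for library 2. With a single group, no value below measures an effect of Lipid A, and the spread between the libraries may be technical.

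Ribosomal proteins are made in the cytoplasm. Most are carried into the nucleolus, joined there to ribosomal RNA and sent out again within a subunit precursor, and most are needed in equal copy per ribosome. Many of their messages begin with a C followed by a run of pyrimidines, the 5′ terminal oligopyrimidine (TOP) tract, through which mTOR signalling and the RNA-binding protein Larp1 control their translation. Their genes are short and rich in small introns, and many of those introns hold genes of small nucleolar RNAs (snoRNAs), which are released from the intron and guide the modification of ribosomal RNA. Nuclear RNA contains unfinished and unspliced transcripts beside finished messages, so an intron that is read in it can belong to a precursor or to a stably retained form.

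The library totals were 19797829 and 17213606 expected counts on named genes. A share of 2.63% of these lay on mitochondrial genome genes in library 1 and 6.60% in library 2. All 10 macrophage markers examined were detected, with a summed level of 3182 TPM (a level scaled by transcript length and by the sum over all transcripts) in library 1 and 2527 TPM in library 2, while none of the 10 lists of other cell types exceeded 23.1 TPM in sum. No marker of B cells, NK cells, neutrophils, mast cells, erythroid cells or fibroblasts was detected. The single genes with the highest level on those lists were Cd4 at 21.4 TPM, Pf4 at 17.3 TPM and Kdr at 11.2 TPM, as means of both libraries.

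The start sites are shown first because the TOP tract is the sequence feature for which these genes are best known. Each line gives 15 bases before and 15 bases after the start annotated by RefSeq on GRCm38.p6, 5′ to 3′ on the strand of the gene, with capitals marking a C followed by 5 or more pyrimidines (C or T) that begins within 5 bases of the start. The first 6 are members that have such a tract and the last 4 are members of high level that do not.
Rps24 (chr14:24490663-24490692, plus strand): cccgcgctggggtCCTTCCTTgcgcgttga
Rps9 (chr7:3704026-3704055, plus strand): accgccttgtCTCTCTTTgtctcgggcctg
Rpl13a (chr7:45128731-45128760, minus strand): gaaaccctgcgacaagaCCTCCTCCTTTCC
Rpl15 (chr14:18270972-18271001, minus strand): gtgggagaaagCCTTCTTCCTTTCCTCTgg
Rpl27a (chr7:109519180-109519209, plus strand): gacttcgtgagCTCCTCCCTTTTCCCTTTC
Rpl14 (chr9:120571502-120571531, plus strand): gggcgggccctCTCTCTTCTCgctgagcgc
Rpl41 (chr10:128549154-128549183, minus strand): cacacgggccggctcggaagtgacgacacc
Rpl10 (chrX:74270801-74270830, plus strand): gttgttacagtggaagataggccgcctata
Rps12 (chr10:23787195-23787224, minus strand): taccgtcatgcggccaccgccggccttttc
Rps28 (chr17:33824548-33824577, minus strand): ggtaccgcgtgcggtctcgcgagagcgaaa

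The promoter table held a start for 61 members, and 25 of them (41.0%) had the tract at 1 or more starts. Among 26964 other genes in the table the share was 11.9%. The search covered the strand of the gene only, and a member without a match has no such letters within 5 bases of the annotated start, which need not be the start used in these cells. The 25 detected members with it had a median of 29.3 TPM in library 1 and 27.0 TPM in library 2. The 33 detected members without it had 30.5 TPM and 21.2 TPM, so their order differed between the libraries. The printed starts show both cases, since Rps24 has a tract and the highest mean level of all members while Rpl14 has a longer tract and a mean of 7.28 TPM ± 1.67 (SD, n = 2).

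Of the 80 genes, 77 reached 10 expected counts in each library and are called detected, all 31 of the small subunit and 46 of the large. Together the members took 33128 counts in library 1, which is 0.167% of the named-gene counts (Wilson 95% interval 0.166% to 0.169%), and 27939 counts in library 2, which is 0.162% (0.160% to 0.164%). The detected members had a median level of 31.4 TPM in library 1 and 24.2 TPM in library 2. Over all 10991 detected protein-coding genes the medians were 7.07 and 5.57 TPM. Of the members, 74 lay above that median in both libraries, against 46.6% of all detected protein-coding genes. The exceptions among those detected were Rps27l, Rpl7l1 and Rpl36a, each below the median in 1 or both libraries. In bulk RNA such as this, fewer cells of a type and less RNA per cell cannot be told apart.

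The rank of the family depends on whether length is taken into account. By TPM, which is scaled by length, the median member stood at percentile 84.0 of detected protein-coding genes in library 1 and 84.2 in library 2. By expected counts, which are not, it stood at percentile 51.2 and 52.0. The median length that RSEM used was 738 nt for members and 2495 nt for all detected protein-coding genes in library 1. The kallisto tables placed the median member at 11.8 TPM ± 4.16 (SD, n = 2), under the 27.8 TPM ± 5.06 of the RSEM tables, at percentile 84.7 of the genes detected there.

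The members were closer to each other in level than protein-coding genes at large. The SD of log2(TPM + 1) across detected members was 0.89 in library 1 and 0.98 in library 2, against 1.85 and 1.78 across all detected protein-coding genes. A narrow spread was not particular to the members. It was 0.91 and 0.84 over the mitochondrial ribosomal proteins and 0.52 and 0.60 over 7 ribosome components outside the rule, both described below. A range from 6.67 to 118 TPM still separated the lowest from the highest member in library 1, and one from 5.32 to 191 TPM in library 2. Across the 77 members the levels in the libraries correlated with r = 0.893 on the log2 scale and rho = 0.889, as a description over genes that share each library's depth.

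The small subunit included the highest member. Rps24 (chr14:24487125-24496959, mm10), whose message is known for alternative exons near its 3′ end, stood at 107 TPM in library 1 and was higher, at 191 TPM, in library 2. The RSEM credibility intervals, each within 1 library and of unstated level, were 93.8 to 110 TPM and 171 to 193 TPM. Rps9 (chr7:3703993-3706897), a protein of the small-subunit body, had 99.3 and 57.5 TPM, the higher value in library 1. The next 3 members, all small-subunit proteins, were closer together and closer between libraries. Rps12 (chr10:23785183-23787275) had 69.9 and 56.9 TPM. Rps28 (chr17:33819027-33824562) had 57.2 and 56.7 TPM. Rps29 (chr12:69157722-69159186) had 62.5 and 49.6 TPM. The means of these 3 genes differed by less than the SD of Rps12 or of Rps29 over the libraries.

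In the large subunit, Rpl41 and Rpl10 stood apart from the rest. Rpl41 (chr10:128548114-128549305), which encodes the smallest ribosomal protein, had 102 and 126 TPM, the higher value in library 2. Rpl10 (chrX:74270812-74273135), a protein that joins the subunit late in its maturation, had 118 and 95.1 TPM. Each of them was above all 44 other detected large-subunit members in both libraries. The next 3 formed a group with no order beyond their spread. Rpl19 (chr11:98026710-98030492) had 57.6 TPM ± 3.93 (SD, n = 2). Rpl13a (chr7:45125558-45128761), known in monocytes for a role outside the ribosome in silencing inflammatory messages, had 57.2 TPM ± 5.31. Rpl37a (chr1:72711290-72713813) had 56.5 TPM ± 16.03.

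**Figure D1:**
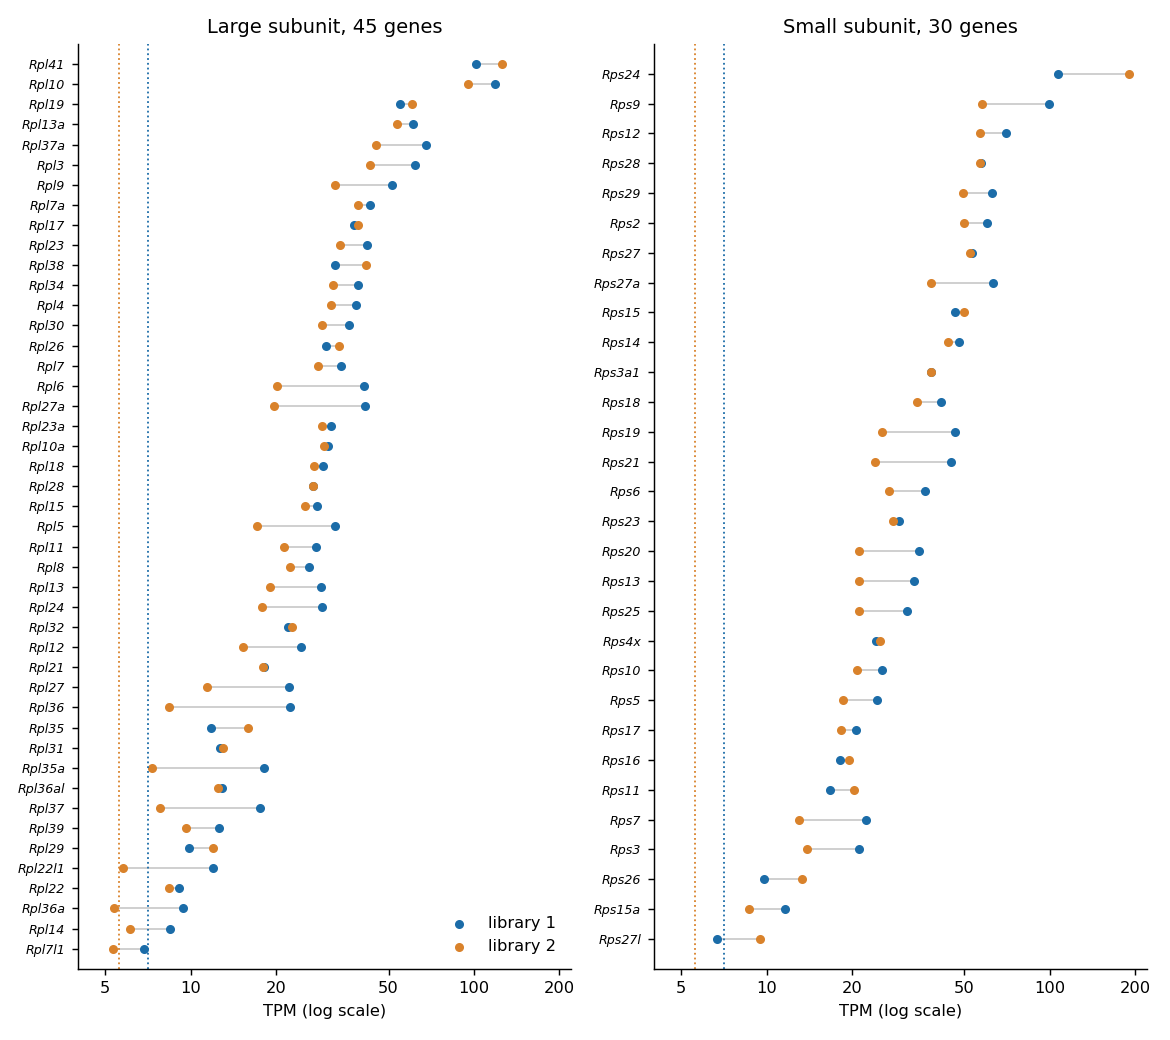
Level in TPM (log axis) of 75 of the 77 detected ribosomal protein genes, large subunit on the left and small subunit on the right, ordered by the mean of both libraries, with library 1 in blue and library 2 in orange joined by a grey line. Dotted lines mark the median of all detected protein-coding genes in each library (7.07 and 5.57 TPM), and all but 3 of the genes drawn lie above it in both.

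The lowest detected members included several paralogs. In the small subunit these were Rps27l at 6.67 and 9.50 TPM in library 1 and library 2, Rps15a at 11.6 and 8.70 TPM, and Rps26 at 9.77 and 13.3 TPM. In the large subunit they were Rpl7l1 at 6.86 and 5.32 TPM, Rpl14 at 8.46 and 6.10 TPM, and Rpl36a at 9.36 and 5.36 TPM. Rps15a, Rps26, Rpl14 and Rpl36a encode regular subunits of the ribosome, so a low nuclear level was not limited to the paralogs.

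The large-subunit members had the lower median in both libraries. It was 29.2 and 22.6 TPM over the large-subunit members in library 1 and library 2, and 34.4 and 25.1 TPM over the small-subunit members. The difference of the medians of log2(TPM + 1), large minus small, was −0.23 in library 1 and −0.14 in library 2. It was −0.11 without the 4 detected -like paralogs and −0.071 ± 0.15 (SD, n = 2) in the kallisto tables, against a mean of −0.19 ± 0.06 (SD, n = 2). Of the 46 large-subunit members, 19 lay above the median member in library 1 and 22 in library 2.

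The undetected members were Rpl10l, Rpl3l and Rpl39l, paralogs known for their use in testis (Rpl10l, Rpl39l) and in muscle (Rpl3l). Rpl10l and Rpl3l had 0 counts in both libraries, which allows up to 3 counts, or 0.152 CPM (counts scaled by the library total) in library 1 and 0.174 CPM in library 2. Rpl39l had 1 count in each. Their partners Rpl10, Rpl3 and Rpl39 were all detected, with Rpl3 at 62.1 and 42.9 TPM and Rpl39 at 12.6 and 9.60 TPM. The coding sequences of Rpl10l and Rpl39l are 84.7% and 85.0% identical to those of their partners.

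Of the paralog pairs with both genes detected, by RSEM 2 had the paralog lower in both libraries, 1 had it higher in both and 1 changed order. The log2 ratio of TPM + 1 was −2.18 ± 0.03 (SD, n = 2) for Rpl7l1 against Rpl7, whose level was 34.1 and 28.2 TPM. It was −2.58 ± 0.34 for Rps27l, a gene known as a target of p53, against Rps27 at 53.1 and 52.1 TPM. For Rpl22l1 against Rpl22, the ratio was 0.37 in library 1 and −0.47 in library 2, so the pair changed order between the libraries. In the kallisto tables the ratio was −0.07 and −1.06, with the paralog lower in both. Rpl22l1 had 12.0 and 5.79 TPM and Rpl22 had 9.06 and 8.40 TPM. The Rpl22l1 estimate is also the least certain of its family, with a credibility interval of 4.88 to 87.6 TPM in library 2. Rpl36al exceeded Rpl36a by 0.43 in library 1 and 1.08 in library 2 on the same scale, with coding sequences 87.7% identical, but by 0.16 ± 0.30 in the kallisto tables. There the ratio was −0.06 in library 1 and 0.37 in library 2, so this pair changed order. Rpl36al itself held 13.0 and 12.5 TPM.

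The members have 484 annotated transcripts, of which 226 are protein-coding, 170 are classed as retained intron, 23 as targets of nonsense-mediated decay (NMD, the removal of messages with an early stop) and 65 as processed transcripts without a reading frame. Shares of a gene's TPM in these classes were examined in the 69 members that reached 100 expected counts in each library. The remaining 8 detected members fell below that minimum in at least 1 library, Rpl36 and Rps21 among them. The median protein-coding share was 72.2% in library 1 and 80.6% in library 2, beside 75.4% and 78.9% over 7575 other protein-coding genes. It was over 50% in both libraries in 49 of the 69 members, beside 76.2% of all 7644 protein-coding genes examined. It was under 50% in both in 11 members, beside 15.2% of all.

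The retained-intron share had a median of 16.1% in library 1 and 13.1% in library 2 over the 69 members, and of 13.3% and 9.85% over the other protein-coding genes. Among genes with an annotated retained-intron transcript the order was the opposite, at 21.1% and 16.7% over 56 members and 25.1% and 22.2% over 5002 other genes. The order depends on the measure, since by expected counts in place of TPM the members stood at 24.9% and 18.8% and the other genes at 13.6% and 11.9%. The other 13 members, Rpl7a, Rps6 and Rpl11 among them, have no annotated retained-intron transcript, which fixes their share at 0. The tables cannot tell a retained-intron transcript from an unspliced precursor over the same intron, and whether precursors add to these shares was not tested.

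Retained-intron transcripts held more than 50% of the TPM in both libraries in 7 members, beside 6.71% of all 7644 protein-coding genes examined. These were Rps16, Rpl5, Rps20, Rps26, Rpl37, Rpl27a and Rpl3. By kallisto there were 12 such members, beside 772 of the 7575 other genes. The splice sites of the introns that lie whole inside an annotated retained-intron transcript of these genes are shown because these are the junctions such a transcript leaves unspliced. Each 5′ line gives up to 10 exon bases and then the first intron bases, each 3′ line the last intron bases and then 5 exon bases, from the GENCODE M21 transcripts on the strand of the gene, with capitals for the first and the last 2 bases of the intron. No whole intron met this rule in Rpl37 and Rps26. The first Rps20, Rpl27a and Rpl3 introns shown are kept by abundant transcripts (Rps20-201, Rpl27a-201 and Rpl3-204), while those of Rps16 and Rpl5 are kept by minor ones, Rps16-202 with 1.94 and 2.47 TPM and Rpl5-203 with 1.17 and 0.24 TPM. The last 3 introns hold a snoRNA gene and are kept by Rps20-202, Rpl27a-202 and Rpl3-206.
Rps16 intron 3, 5′ site (chr7:28352274-28352362, plus strand): caaatttatgGTaagtctca
Rps16 intron 3, 3′ site: ttggtcattgtgtcttgcAGccatc
Rpl5 intron 4, 5′ site (chr5:107903404-107903665, plus strand): ggcccgcaggGTatgtatat
Rpl5 intron 4, 3′ site: gttgacttctctgttcatAGcttct
Rps20 intron 1, 5′ site (chr4:3835292-3835483, minus strand): ccatgGTgaggtggg
Rps20 intron 1, 3′ site: tcccgcctgggtgataacAGgcatt
Rpl27a intron 2, 5′ site (chr7:109519649-109519917, plus strand): ggccgcatcgGTaagtgtgc
Rpl27a intron 2, 3′ site: gttgctttgtgtgccgacAGgtaag
Rpl3 intron 3, 5′ site (chr15:80081032-80081614, minus strand): ataagaactgGTaagaggct
Rpl3 intron 3, 3′ site: actgtgctctgctcctgaAGgcaca
Rps20 intron 2, 5′ site (chr4:3835010-3835191, minus strand): ctggagaaggGTcagtacga
Rps20 intron 2, 3′ site: catgctttcttaacccgcAGtttgt
Rpl27a intron 3, 5′ site (chr7:109519994-109520467, plus strand): ttgacaaataGTgagtgttt
Rpl27a intron 3, 3′ site: tggttgccttccctccccAGtcacc
Rpl3 intron 5, 5′ site (chr15:80079851-80080365, minus strand): gggtacaaagGTaagctttg
Rpl3 intron 5, 3′ site: gaagttaacattctttccAGgggta

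Those introns had ordinary splice-site letters. Over all 43 members with such an intron, 93 distinct introns lay whole inside a retained-intron transcript, and all of them began with GT and ended with AG, as did 98.5% of the 6771 such introns of other protein-coding genes. The 5′ site began with GTAAGT or GTGAGT on the strand of the gene in 42 of the 93 (45.2%), against 24.9% in the other genes. Of the printed introns, that of Rps16 and both of Rpl27a begin in this way. The median length of the 93 was 262 bp, beside 261 bp in other genes and 423 bp for the 251 introns of the members' main coding transcripts that no retained-intron transcript spans.

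Rps16, a small-subunit protein near the decoding centre, had the highest retained-intron share, 87.2% in library 1 and 94.8% in library 2. Its level was 18.1 and 19.5 TPM, and a transcript of 518 nt, Rps16-203, held 76.5% and 82.1% of it. In the kallisto tables its retained-intron share was 77.1% and 73.4%. The only intron that lies whole inside a retained-intron transcript of Rps16 is kept by the minor Rps16-202, not by Rps16-203. Rpl5, which carries the 5S ribosomal RNA and with it can bind the p53 regulator Mdm2, followed at 76.1% and 80.9%. In Rpl5 no single transcript dominated, since Rpl5-204, Rpl5-202 and Rpl5-205 held between 19.2% and 32.8% each. None of these keeps a whole intron, and the only such intron of Rpl5 is kept by the minor Rpl5-203.

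Rps20 showed how much the measure matters. Its retained-intron share was 77.2% of TPM in library 1 and 68.7% in library 2, and the transcript that keeps intron 1, Rps20-201, had 19.5 and 12.2 TPM. By expected counts the share was 25.8% and 18.1%. The coding transcript Rps20-203 is 3706 nt long and Rps20-201 is 582 nt. In Rpl3, by contrast, both measures gave more than 50%. The Rpl3 share, in a gene known to control its own splicing, was 55.7% and 59.2% of TPM and 62.8% and 64.9% of counts. Rpl3-204, which keeps intron 3, held 22.0 and 14.3 TPM, close to the 23.2 and 15.7 TPM of the coding transcript Rpl3-201.

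The other members of this group differed more between the libraries. Rps26 had 51.6% in library 1 and 84.1% in library 2, on 113 and 128 counts. Rpl37 had 76.1% and 52.8%, on 200 and 109 counts. Rpl27a was steadier at 58.5% and 62.4%. Just outside the limit lay Rpl15, at 41.6% and 62.4%, and Rpl10, at 58.0% and 44.1%. Of the printed genes, Rpl3 and Rpl5 overlap another protein-coding gene on the opposite strand, Syngr1 with 1194 and 845 counts and Fam69a with 129 and 82.4 counts, and the strand used in counting is not stated. Without the 19 members that overlap another protein-coding gene, Rpl3 and Rpl5 drop out and the other 5 members over 50% remain.

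**Figure D2:**
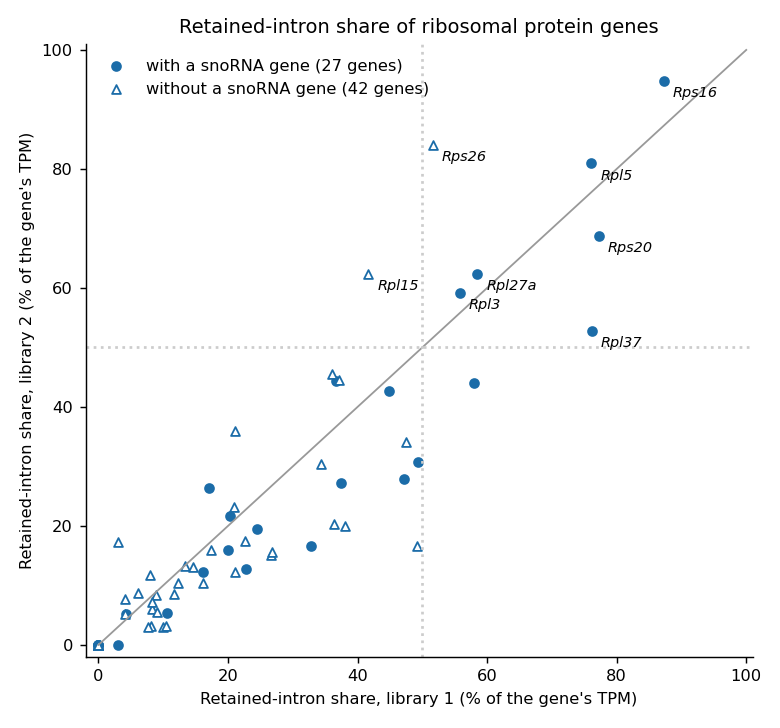
Retained-intron share of each gene's TPM in library 1 (x axis, percent) and library 2 (y axis, percent) for the 69 members with 100 or more expected counts in both, filled circles with and open triangles without a snoRNA gene. The grey line marks equal shares and dotted lines mark 50%, and the 7 members in the upper right field are above it in both libraries.

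The retained-intron share tended to be lower in library 2. Of the 56 members with a share above 0, 37 were lower in library 2 and 19 were higher, beside 61.1% lower among all 4961 protein-coding genes with such a share, a share of 66.1% for the members. The median difference was −3.03 percentage points for members and −1.93 for the other genes. The protein-coding share was higher in library 2 in 46 of the 69 members and lower in 17, beside 50.1% higher and 31% lower among all protein-coding genes examined. Library 2 also had the larger mitochondrial share, 6.60% against 2.63%, and the smaller RNA input. The replicate, the input and the mitochondrial share cannot be told apart with 1 library on each side.

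NMD transcripts made up a mean of 3.09% of the members' TPM in library 1 and 2.57% in library 2, beside 3.51% and 3.45% in other protein-coding genes. Rpl12, a protein of the ribosomal stalk base known to control its own splicing, had 56.9% in library 1 and 67.3% in library 2 in its NMD transcript Rpl12-201, though 23.0% and 25.9% by kallisto. Rpl13a had 28.7% and 20.8%. Rpl14 had 40.3% in library 1 and 0 in library 2. Of these, Rpl12 overlaps Lrsam1 on the opposite strand, which had 406 and 325 counts. Processed transcripts made up a mean of 6.30% and 4.39%, and held the largest shares in Rpl23 (59.3% and 63.4%) and Rps23 (53.7% and 56.6%), genes named here after their values were seen.

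**Figure D3:**
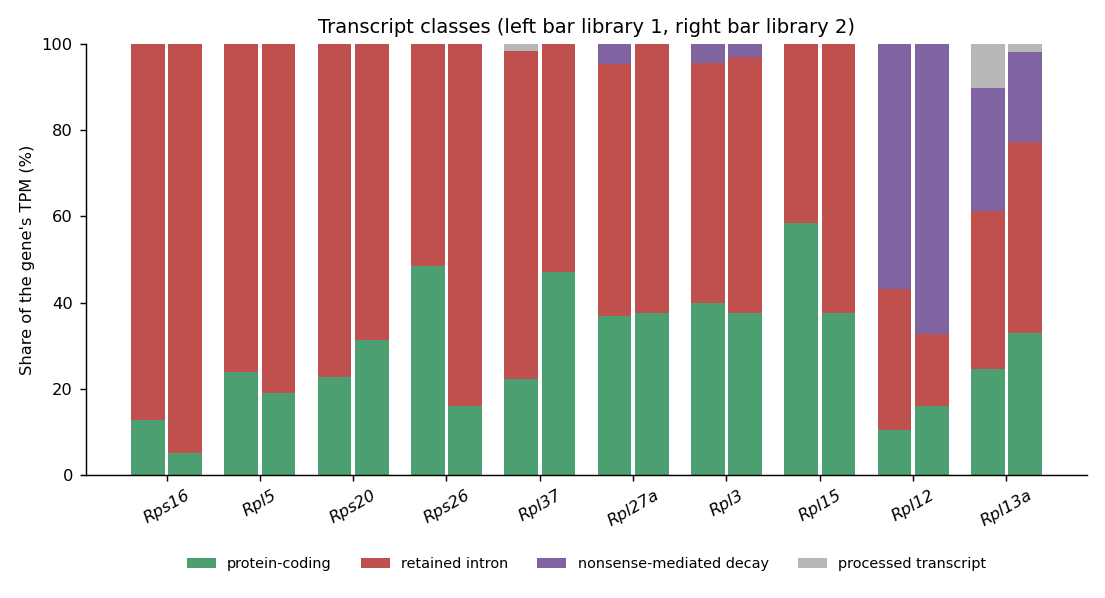
Share of TPM (percent) by transcript class for the 8 members with the highest mean retained-intron share and for Rpl12 and Rpl13a, which have high NMD shares, library 1 in the left bar and library 2 in the right bar of each pair. Protein-coding transcripts hold under 50% in both libraries in every gene drawn except Rpl15, and the NMD class is over 50% in both only in Rpl12 among the 10 genes drawn.

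The members hold 54 annotated snoRNA genes on their own strand, inside 28 of the 80 genes. Rpl4 holds 5, Rpl13a holds 4, and Rps12, Rpl17, Rpl7a, Rpl5 and Rpl23a hold 3 each. Few of the snoRNAs themselves gave counts. By RSEM, 9 of the 54 had a count in library 1 and 2 in library 2, none of them shorter than 130 nt. By kallisto, 12 reached 10 counts in each library, shorter ones included. Rnu73b in Rps3a1, of 71 nt and named after its values were seen, had 26 and 40 counts by kallisto and 0 by RSEM.

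The 2 snoRNA genes detected in both libraries lie in Rps3, a small-subunit protein known also to bind the NF-kB subunit p65. Snord15a (chr7:99482785-99482932, minus strand) had 169 counts in library 1 and 38 in library 2. Snord15b (chr7:99479563-99479707, minus strand) had 83.5 and 10.8 counts. Rps3 itself stood at 21.2 and 13.9 TPM. Gm22270 in Rpl5 and Snora21 in Rpl23 had 3 counts each in library 1 and 0 in library 2. Because a count of 0 allows up to 3 counts, no order is given for Gm22270 and Snora21. In TPM, Snord15a had 1536 in library 1 and 598 in library 2, and Snord15b had 879 and 200. The TPM of their host Rps3 was lower in library 2 as well. The median over all detected protein-coding genes was also lower there, at 5.57 against 7.07 TPM. Whether these differences are linked was not tested.

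Members with a snoRNA gene had higher retained-intron shares. The median was 24.5% in library 1 and 21.6% in library 2 over the 27 with one, and 11.0% and 10.5% over the 42 without. Of the 7 members above 50%, 6 hold a snoRNA gene, the exception being Rps26. In 19 members, 26 retained-intron transcripts hold a whole snoRNA gene in their exons. With these transcripts left out, the medians were 14.2% and 12.5% against 11.0% and 10.5%, a difference of 2.62 in place of 12.3 percentage points, and 7 members were above 50%. Whether reads of mature snoRNAs were assigned to such transcripts was not tested.

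Between the libraries, the family as a whole moved with the other genes. The median log2 ratio of TPM + 1, library 2 over library 1, was −0.27 over detected protein-coding genes, and ratios are given relative to it. So centred, the median of the 77 members was −0.01, with 37 higher and 40 lower in library 2. The quartiles of the members were −0.35 and 0.26, beside −0.26 and 0.24 for all detected protein-coding genes. In the kallisto tables the members stood higher, with a centred median of 0.28 and 56 of 77 higher in library 2. A direction for the family therefore depends on the program that made the estimates.

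A ratio of more than 2-fold was found in 3 of 77 members, beside 1.6% of all detected protein-coding genes. Of these, Rps24 was 2.15-fold higher in library 2 and Rpl36 was 2.08-fold lower, relative to the median gene. In Rps24 the coding transcript Rps24-201 had 67.2 and 150 TPM. The Rps24 ratio of counts scaled by TMM was 0.66 on the log2 scale, against 1.10 for TPM, and its estimated length was 908 nt in library 1 and 703 nt in library 2. Rpl36, with a single annotated transcript that took all of its TPM, had 87 counts in library 1 and 31 in library 2. With TMM-scaled counts or median-of-ratios size factors in place of TPM, 1 member was over 2-fold. The shares of all detected protein-coding genes were then 4.08% and 4.07%.

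**Figure D4:**
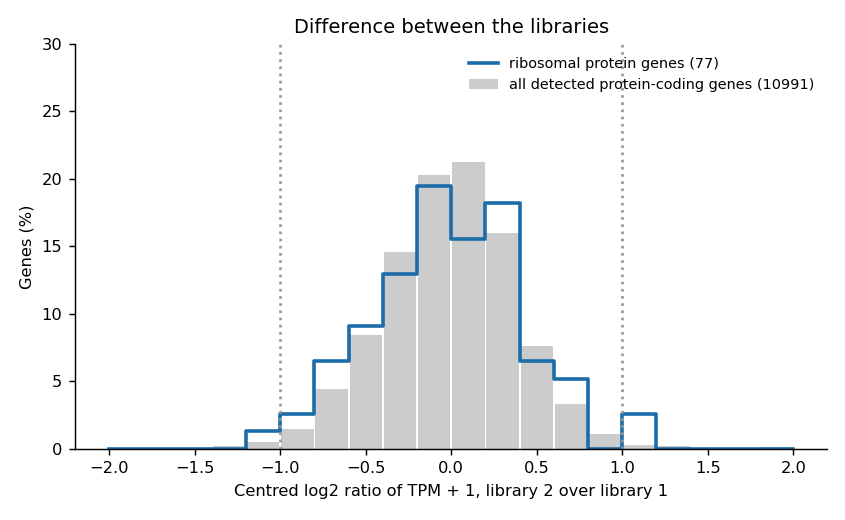
Share of genes (percent) by centred log2 ratio of TPM + 1, library 2 over library 1, in bins of 0.2, for all 10991 detected protein-coding genes (grey bars) and the 77 detected ribosomal protein genes (blue line). Dotted lines mark 2-fold, values beyond 2 are counted in the outermost bins, and 3 ribosomal protein genes lie outside the dotted lines.

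Compared with other genes of translation, the cytosolic ribosomal proteins were among the higher lists. The 7 ribosome components whose names fall outside the rule, among them Rplp0, Rplp1, Rplp2, Rpsa, Fau and Rack1, had a median of 42.4 TPM in library 1 and 32.3 TPM in library 2. Fau, made as a fusion of a ubiquitin-like protein and a small-subunit protein, led them with 69.9 and 93.0 TPM. All 7 lay above the median protein-coding gene in both libraries. The members' median was 0.41 ± 0.02 (SD, n = 2) below theirs on the log2(TPM + 1) scale.

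Elongation and initiation factors came next, with a median of 25.2 TPM in library 1 and 18.9 TPM in library 2 over 32 genes. Eef1a1, which delivers aminoacyl-tRNA to the ribosome, had 371 and 439 TPM, more than any ribosomal protein gene in either library. Eif4g2, a scaffold of cap-independent initiation, had 217 and 157 TPM. Eif1ax was lowest at 1.46 and 0.99 TPM. Their levels were more widely spread than those of the members, with an SD of log2(TPM + 1) of 1.82 in both libraries.

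The 13 regulators of TOP translation had medians of 11.4 and 9.33 TPM. Larp1, which binds the TOP tract, was highest with 38.5 and 27.0 TPM, followed by Rheb, the GTPase that activates mTORC1, with 27.8 and 21.2 TPM. Pdcd4, an inhibitor of the helicase eIF4A, was lowest with 1.24 and 0.70 TPM. The 50 ribosome assembly factors had medians of 6.18 and 4.99 TPM, near the median protein-coding gene. Among them Sbds, needed for maturation of the large subunit, had 62.0 and 32.9 TPM, Ncl (nucleolin) had 31.0 and 36.2 TPM, and Nop16 was lowest with 0.66 and 0.75 TPM. In Ncl, itself a snoRNA host, retained-intron transcripts held 82.9% and 85.2%.

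The mitochondrial ribosomal proteins, encoded in the nucleus and used inside mitochondria, stood far below their cytosolic counterparts. Of 78 measured genes, 75 were detected, with a median of 3.60 TPM in library 1 and 3.21 TPM in library 2. The cytosolic median was higher by 2.70 ± 0.16 (SD, n = 2) on the log2(TPM + 1) scale. Only 12 of the 75 lay above the median protein-coding gene in both libraries, against 74 of the 77 cytosolic members. Mrpl24 was highest at 61.6 and 50.4 TPM, followed by Mrpl33 at 14.2 and 15.1 TPM, and Mrpl35 was lowest at 0.45 and 0.51 TPM. Their retained-intron share had a median of 26.3% and 18.5% over the 23 genes with enough counts, above the 16.1% and 13.1% of the cytosolic members. All of these lists keep the same order by median TPM in both libraries.

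**Figure D5:**
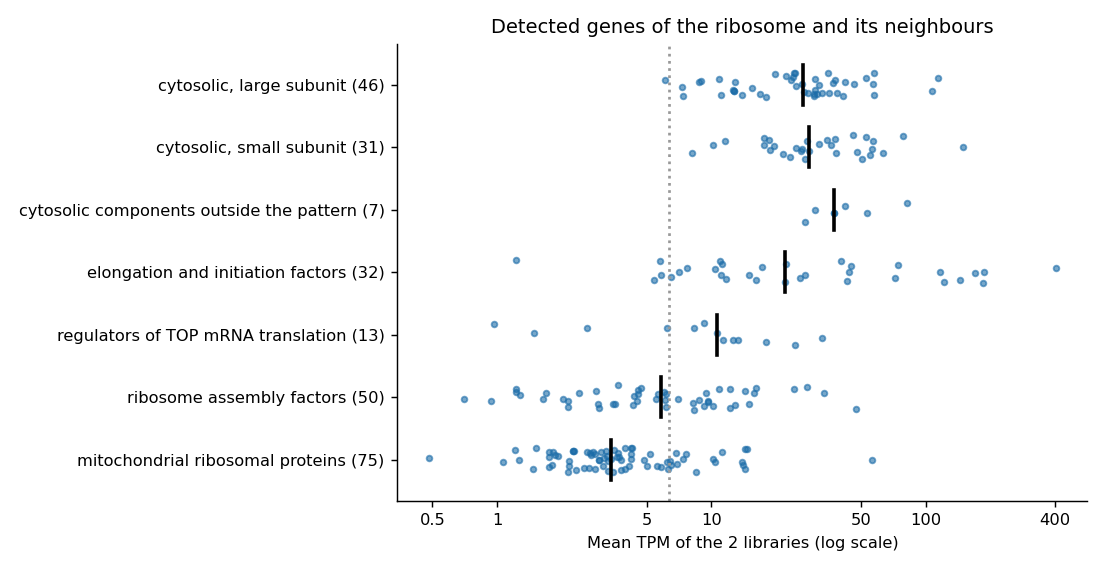
Mean TPM of both libraries (log axis) of every detected gene, 1 point per gene, in the large and small cytosolic subunits and in the other lists, with the number of genes in brackets. Black bars mark list medians and the dotted line the median of all detected protein-coding genes, and the mitochondrial ribosomal proteins lie mostly below that line.

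The members are spread over 19 chromosomes, with 13 on chromosome 7, which holds 9.18% of protein-coding genes. Processed pseudogenes are a known hazard of this family, since copies of ribosomal protein messages are scattered through the genome. The annotation names 281 pseudogenes after 57 of the members. They took 908 counts in library 1 and 877 in library 2, beside 33128 and 27939 in the members. By kallisto these pseudogenes took 1644 and 1961 counts and the members 41400 and 41982. Pseudogenes under any other name were not counted. Only 14 detected members had whole expected counts in both libraries (within 0.005), as where no read was divided among features, and their median was 23.5 and 21.4 TPM.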

How the data were processed

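For each library there was an RSEM-style pair of tables (genes, transcripts) and a kallisto-style transcript table. The expected counts (estimated counts that need not be whole) and TPM were used as the authors deposited them, with mm10 and GENCODE M21 named in the submitters' notes beside the files. The authors also deposited credibility bounds for each TPM, treated here as a score since their level is not stated, and the percent of a gene's TPM in each transcript, which was recomputed. The sources used here do not name the aligner, program versions or strand of counting.

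The members are defined by name alone. Their rule, the gene lists and the rule for named genes were still set with earlier results of these data known, and no list is independent evidence. Named are the 5 highest and 3 lowest detected members of each subunit, those not detected, the 8 highest in retained-intron and 3 highest in NMD share, those over 2-fold apart, the -like paralogs and partners (7 of 8 pairs measured), the 5 members with the most snoRNA genes with ties, the 5 snoRNA genes with the most counts, the 7 components outside the rule, and the 2 highest and the lowest detected gene of each list. Some genes under this rule are not reported here.

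Detection required 10 expected counts in each library. Shares by transcript class needed 100. Ratios used log2(TPM + 1), which understates changes of low genes. A count of 0 allows up to 3 counts. That floor and the Wilson 95% intervals reflect counting error alone: PCR copies were not told apart from separate molecules. The mean ± SD is over both libraries. No test was possible with 1 group of 2. Expected counts, rounded to integers, gave TMM factors (edgeR 4.0.16, R 4.3.3). Other values came from Python 3.11.15 with pandas 2.3.3, numpy 2.4.6 and Biopython 1.88. The library ratio was tested on simulated data, with changes above 2-fold in genes of 100 or more counts and a pseudocount far below 1. Class shares and percentiles were tested on small made-up examples, and the other results were not simulated. Alternatives were kallisto in place of RSEM, other minima, pseudocounts and scalings, and each library alone.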

Additional observations from a re-analysis of the deposited data

How the results depend on the processing

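A total of 140 values under alternative settings were compared with 25 results, and 86 moved by less than the spread between the libraries (for counts, less than 1.5 times). The cause of the moves was not tested. With kallisto in place of RSEM, the median member had 11.8 TPM at percentile 84.7, the members' share of counts was 0.147%, large minus small was −0.071, the median retained-intron share 18.4%, with 12 members above 50%, and the mean protein-coding and processed shares 64.7% and 7.05%. Kallisto also gave paralog ratios of −1.54 (Rpl7l1), 0.16 (Rpl36al) and −2.20 (Rps27l), 12 detected snoRNA genes and a snoRNA difference in retained-intron share of 18.1 percentage points. The cytosolic median minus that of the other lists was then −0.33 (components outside the rule), 0.19 (factors), 1.58 (assembly), 1.12 (TOP regulators) and 2.20 (mitochondrial).

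With a detection minimum of 50 the percentile was 80.9, those list differences −0.37, 0.36, 1.90 and 2.45 (TOP regulators did not move), and 0 snoRNA genes were detected. TPM rescaled without mitochondrial and short genes gave a median of 34.5. By expected counts the percentile was 51.6, the mean NMD share 2.34% and the snoRNA difference 10.05. Without the -like paralogs the percentile was 84.6 and large minus small −0.11, as without overlapping members (−0.11). Fewer members pass a minimum of 500 counts, and the share over all genes at that minimum is not given. There the median retained-intron share was 21.2% with 2 members above 50%, and the snoRNA difference 21.8. With only genes that have a retained-intron transcript these were 18.9% and 18.1. Leaving out retained-intron transcripts that hold a snoRNA gene gave a difference of 2.62. All settings for the snoRNA difference, the shares by expected counts and the omission of overlapping members were chosen after seeing the data.

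The near-zero library ratio of the family (−0.01) changed sign to 0.28 with kallisto, 0.021 at a minimum of 50, 0.054 with a pseudocount of 0.1, 0.033 with TMM and 0.041 with median-of-ratios factors, and was −0.29 without centring. TMM and median-of-ratios factors each left 1 member over 2-fold, beside 4.08% and 4.07% of all detected protein-coding genes. The Rpl7l1 ratio was −2.34 at a pseudocount of 0.1. The Rpl22l1 ratio ranged from −0.47 to 0.37 with 1 library left out. No paired analysis was possible because both libraries belong to 1 group. Depth limits the shares of the 8 detected members under 100 counts, which were left out of the main values.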
